A study of Mus musculus with 12 samples.

Results

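Noradrenaline and acetylcholine act on cells in part through receptors that signal by G proteins, and 10 genes of these receptors were examined in RNA from mouse midbrain dopamine neurons. Adra1a, Adra1b, Adra2a, Adra2c and Adrb1 are adrenergic receptors, and Chrm1 to Chrm5 are the muscarinic acetylcholine receptors. Members were the rows whose symbol equals one of these names, and all 10 were found among the 23079 genes listed. The samples were dopaminergic neurons of C57BL/6 mice from neighbouring midbrain regions, the ventral tegmental area (VTA) and the substantia nigra pars compacta (SNpc), of which the latter loses more of these cells in Parkinson disease. The labels call the material TRAP samples, a name usually used for pulling down tagged ribosomes of a chosen cell type so that the RNA bound to them is enriched, and they give no treatment, age, promoter of the tag or number of animals per library. After identical columns had been counted once, 5 libraries remained per region, named here by their replicate numbers (SNpc 1, 2, 3, 4 and 6; VTA 1, 2, 4, 5 and 6).

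The alpha-1 adrenergic receptors and the muscarinic receptors M1, M3 and M5 couple mainly to Gq, which activates phospholipase C and releases calcium from internal stores. Alpha-2 adrenergic receptors and the muscarinic receptors M2 and M4 couple to Gi and Go, which lower cyclic AMP and can open inwardly rectifying potassium channels, whereas beta receptors couple to Gs and raise cyclic AMP. Noradrenergic fibres from the brainstem and cholinergic fibres from the pontine tegmentum reach midbrain dopamine neurons, and Chrm5 is known as the muscarinic receptor of these neurons.

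Total counts ran from 62356964 to 81393907 per library. Markers of dopamine neurons were present in both regions, and 10 of 10 tested were called higher in SNpc. They summed to 13250 to 19340 CPM (counts scaled to a common library size) in SNpc and 7299 to 10760 in VTA. The dopamine transporter Slc6a3 and tyrosine hydroxylase Th led them. The series holds only these regions, so enrichment over unselected tissue was not tested. Defining genes of noradrenergic neurons were at or near 0: Dbh, the enzyme that makes noradrenaline, had no count in any library, and the 5 genes of that list summed to at most 0.762 CPM. Those of cholinergic neurons, led by Chat and Slc5a7, summed to 3.15 to 6.42 CPM in SNpc and 2.15 to 8.33 in VTA. Of the 3 cholinergic genes tested, Chat was called higher in SNpc (log2 fold change 1.42, edgeR adjusted p = 0.0198) and 0 higher in VTA. Markers of 8 further cell types were present. Of them, 3 of 10 astrocyte, 1 of 10 oligodendrocyte, 4 of 8 oligodendrocyte precursor, 2 of 10 microglial, 2 of 8 tested vascular, 3 of 5 glutamatergic, 1 of 5 serotonergic and 0 of 7 GABAergic genes were called higher in VTA by edgeR, and 0 higher in SNpc. All these marker counts, the dopaminergic and cholinergic ones included, stand beside 20.4% of all genes tested called higher in VTA and 17.8% higher in SNpc. Several of the lists lie near these shares. Their summed CPM was 266 to 466 in SNpc and 457 to 609 in VTA for 10 astrocyte genes (led by Slc1a2 and S100b), 287 to 1431 and 728 to 917 for 10 oligodendrocyte genes (led by Mbp), 80.2 to 169 and 118 to 152 for 8 oligodendrocyte precursor genes (Lhfpl3, Olig1), 15.7 to 42.2 and 38.7 to 54.9 for 10 microglial genes (P2ry12, Cx3cr1), and 4.26 to 16.8 and 7.69 to 106 for 10 vascular genes (Flt1, Pdgfrb). Slc1a2 alone averaged 276 CPM in SNpc and 470 in VTA, and P2ry12 averaged 19.1 and 35.3. The astrocyte and microglial sums therefore rest largely on 1 gene each. In the same order of regions, Lhfpl3 averaged 59.6 and 56.5 CPM, Gad2 109 and 188, and Slc17a6 36.05 and 93.3. The precursor sums, and the GABAergic and glutamatergic sums that follow, thus lean on 1 gene each as well. In the lists named for other neuron types the sums were 91.0 to 371 and 180 to 299 for 7 GABAergic genes (Gad2, Gad1), 18.7 to 89.2 and 94.9 to 133 for 5 glutamatergic genes (Slc17a6, Slc17a7), and 6.29 to 19.0 and 17.3 to 42.7 for 5 serotonergic genes (Tph2, Htr1a). Whether the RNA of these genes came from such neurons or from the dopamine neurons themselves was not tested. SNpc library 4 stood apart in its region: it held the highest SNpc sum of each of these 8 lists (oligodendrocyte genes 1431 CPM against 287 to 512 in the other SNpc libraries) and the lowest dopaminergic sum. The part of these cells in the receptor differences was not tested beyond a fit with glial markers as a covariate, given below. Apart from SNpc library 4, every SNpc library lay below every VTA library in its astrocyte, oligodendrocyte and precursor sums. The covariate therefore partly stands for the region, and a call lost in that fit cannot be assigned to glial RNA.

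Receptor RNA differed between the regions in both directions, with 6 of 10 members called where 38.2% of all 15685 genes tested were. The test called 5 members higher in VTA, namely Adra1a, Adra1b, Adra2a, Chrm2 and Chrm3, each by more than 2-fold, and Chrm5 alone was higher in SNpc, by 1.34-fold. The direction toward SNpc is the less secure one. Over 18 alternative settings, described below, Chrm5 was called in 10, Chrm2 in 16 and the rest of these members in all. Adra2c, Adrb1, Chrm1 and Chrm4 did not pass the test. The 5 higher in VTA stand beside 20.4% of all genes tested and the 1 higher in SNpc beside 17.8%, by the quasi-likelihood test of edgeR with an adjusted p under 0.05 over all genes. A call with at least a 2-fold difference was made for 10.2% of genes toward VTA and for 0.803% toward SNpc, and for 5 and 0 members. All 10 members passed the filter on low counts, and their lowest count in any library was 33. The median log2 fold change (SNpc minus VTA) over the 10 members was -1.23, against -0.04 over all genes tested. In these bulk libraries, fewer cells that make a receptor and less of its RNA per cell cannot be told apart.

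**Figure D1:**
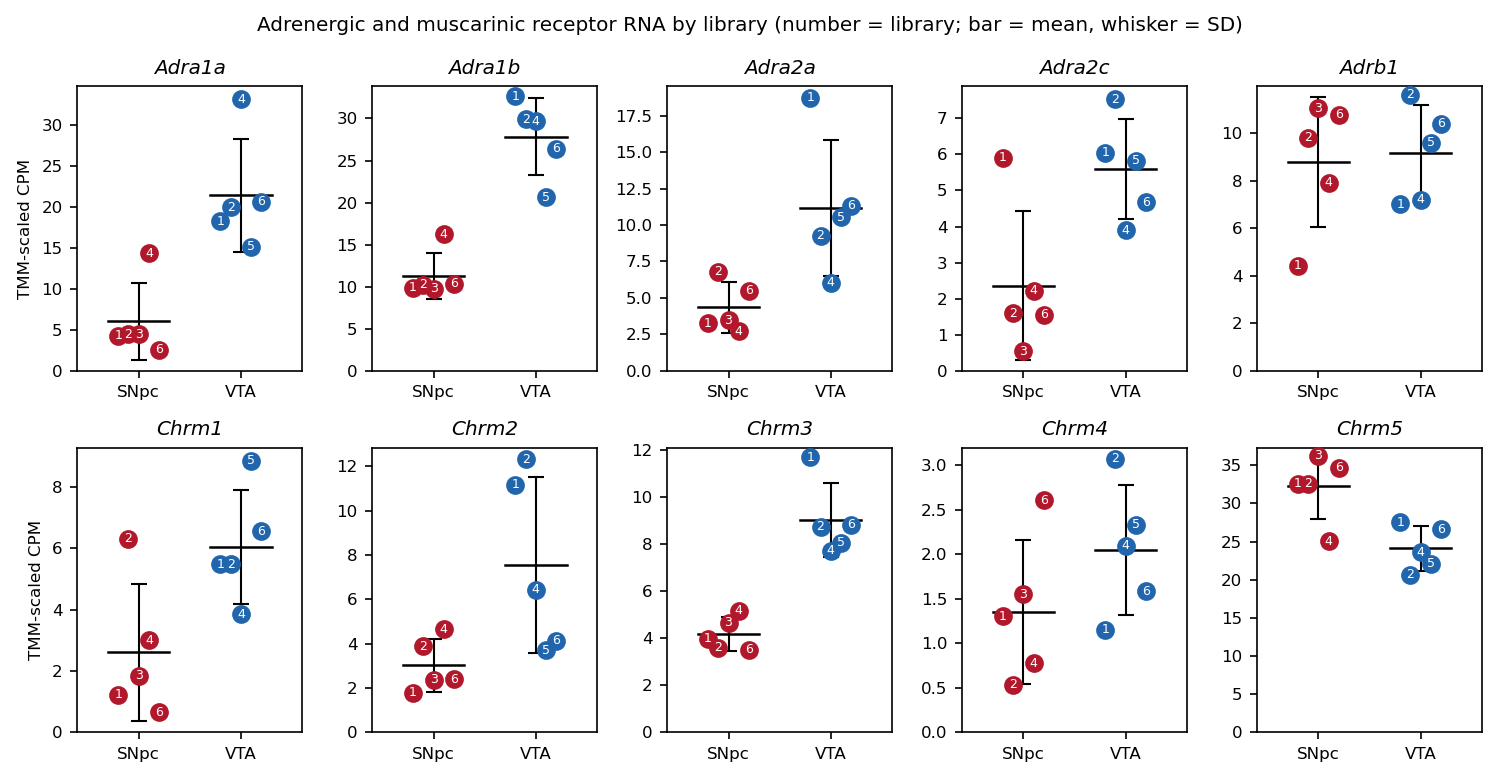
CPM (y axis, TMM-scaled, linear from 0) of each receptor gene in the 5 SNpc (red) and 5 VTA (blue) libraries; numbers inside the points name the library, horizontal bars are means and whiskers SD. For Adra1a, Adra1b and Chrm3 every VTA library lies above every SNpc library, and SNpc library 4 lies above the other SNpc libraries for Adra1a (14.4 CPM) and Adra1b (16.2 CPM).

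The sequence just before the RefSeq start site is shown for 4 of the 5 members higher in VTA, as the regulatory sequence these genes could differ in or share. RefSeq windows (GRCm38.p6, the mm10 build) existed for 8 of the 10 members, and the 250 bases before the start are printed 5′ to 3′, with any match to a searched motif in capitals. For Adra1b the farther upstream of its 2 windows is shown. The Adra2a window lies inside the gene model used for transcript lengths, which starts at 54044151. Its start site, and the length used for Adra2a, are therefore uncertain. The Chrm3 window also reaches into its model, which begins at 10360847 on the minus strand.
Adra1b (chr11:43901238-43901487, minus strand): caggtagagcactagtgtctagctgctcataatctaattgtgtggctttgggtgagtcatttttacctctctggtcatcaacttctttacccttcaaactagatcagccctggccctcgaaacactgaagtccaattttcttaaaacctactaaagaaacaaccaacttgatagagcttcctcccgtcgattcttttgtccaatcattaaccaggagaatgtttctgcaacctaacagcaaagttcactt
Adra2a (chr19:54045009-54045258, plus strand): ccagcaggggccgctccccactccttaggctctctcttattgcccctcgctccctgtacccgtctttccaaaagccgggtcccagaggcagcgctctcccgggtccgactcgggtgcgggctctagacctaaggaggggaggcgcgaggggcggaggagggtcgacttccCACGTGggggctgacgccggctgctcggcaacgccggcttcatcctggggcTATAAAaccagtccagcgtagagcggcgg
Chrm2 (chr6:36387834-36388083, plus strand): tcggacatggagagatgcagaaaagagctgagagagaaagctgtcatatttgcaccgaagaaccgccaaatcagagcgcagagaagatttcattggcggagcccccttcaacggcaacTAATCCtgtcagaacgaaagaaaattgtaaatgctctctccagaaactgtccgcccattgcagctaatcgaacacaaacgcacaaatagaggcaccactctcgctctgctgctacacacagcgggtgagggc
Chrm3 (chr13:10360804-10361053, minus strand): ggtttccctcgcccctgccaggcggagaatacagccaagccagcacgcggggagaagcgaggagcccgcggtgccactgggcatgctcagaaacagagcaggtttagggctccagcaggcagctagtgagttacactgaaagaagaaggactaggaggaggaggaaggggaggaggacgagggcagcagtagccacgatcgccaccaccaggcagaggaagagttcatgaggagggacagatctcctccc
The motifs were searched on both strands. The E-box was CACGTG. The TATA box was TATAAA. The site of bicoid-type homeodomain factors such as Pitx3 and Otx2 was TAATCC. The NBRE bound by Nr4a2 was AAAGGTCA. The site of Foxa factors was TGTTTAC. The cyclic AMP response element (CRE) was TGACGTCA. In the member windows no match overlapped another. Adra2a held the E-box 80 bases and the TATA box 29 bases before the start, and Chrm2 held the bicoid-type site 132 bases before it. The printed windows of Adra1b and Chrm3 held none of the 6 motifs. Over all member windows, 2 of 9 held the E-box (Adra2a and Adra2c), 2 the bicoid-type site (Chrm2 and Chrm4) and 1 the TATA box. Of 32851 windows of all genes, 6.02% held the E-box, 6.25% the bicoid-type site, 12.4% the TATA box, 1.34% the NBRE, 3.17% the Foxa site and 1.55% the CRE. The windows shown share no searched motif, and their GC content ran from 41.6% (Adra1b) to 67.6% (Adra2a), against a median of 52.4% over all windows. The other Adra1b window, not shown, had 72.8% GC.

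Among the alpha-1 receptors, Adra1b (Entrez 11548, mm10 chromosome 11, 43774606 to 43901210, minus strand), which couples to Gq, was at 9.91, 10.2, 9.75, 16.2 and 10.3 CPM in SNpc libraries 1, 2, 3, 4 and 6 and at 32.6, 29.9, 29.6, 20.6 and 26.4 CPM in VTA libraries 1, 2, 4, 5 and 6. The groups did not overlap, and 4 of the 5 SNpc libraries lay within 1 CPM of each other. Its log2 fold change was -1.30 ± 0.18 (SE, edgeR adjusted p = 3.85e-05), from means of 11.3 ± 2.77 and 27.8 ± 4.61 CPM (SD, n = 5 each).

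Adra1a (Entrez 11549, chromosome 14, 66635251 to 66771168, plus strand), the other Gq-coupled member of the adrenergic group, was also higher in VTA. Its values were 4.26, 4.48, 4.47, 14.4 and 2.60 CPM in SNpc libraries 1, 2, 3, 4 and 6 and 18.2, 19.97, 33.2, 15.1 and 20.7 CPM in VTA libraries 1, 2, 4, 5 and 6. SNpc library 4 was close to the lowest VTA library, yet the groups did not overlap. The log2 fold change was -1.83 ± 0.40 (SE, edgeR adjusted p = 0.00304). Without SNpc library 4 it was -2.37 (edgeR adjusted p = 6.61e-06). Separate groups were seen for 26.6% of genes tested. VTA lay above for 14.6%, and for 3 of the 10 members (Adra1a, Adra1b and Chrm3), and SNpc lay above for 12%, and for 0 members.

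Adra2a (Entrez 11551, chromosome 19, 54044151 to 54048982, plus strand) encodes the alpha-2A receptor, a Gi-coupled receptor known as the autoreceptor of noradrenergic neurons. It was at 3.26, 6.81, 3.46, 2.72 and 5.48 CPM in SNpc and at 18.7, 9.26, 6.04, 10.5 and 11.3 CPM in VTA, in the same order of libraries. The groups touched, since VTA library 4 lay below SNpc library 2, and VTA library 1 was the highest. The log2 fold change was -1.36 ± 0.32 (SE, edgeR adjusted p = 0.00291), and without VTA library 1 it was -1.09 (edgeR adjusted p = 0.0125).

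Adra2c (Entrez 11553, chromosome 5, 35278319 to 35281763, plus strand), the alpha-2C receptor, had a difference of similar size that missed the threshold. Its SNpc libraries held 5.90, 1.597, 0.548, 2.22 and 1.55 CPM and its VTA libraries 6.04, 7.53, 3.90, 5.83 and 4.68 CPM. SNpc library 1 alone lay among the VTA libraries. The log2 fold change was -1.24 ± 0.48 (SE, edgeR adjusted p = 0.0504), and without SNpc library 1 it was -1.92 and passed (edgeR adjusted p = 0.00290). DESeq2 also called it (adjusted p = 0.0274).

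Adrb1 (Entrez 11554, chromosome 19, 56722199 to 56733113, plus strand), the Gs-coupled beta-1 receptor, was the one adrenergic member with no difference beyond its error. It was at 4.44, 9.81, 11.1, 7.91 and 10.8 CPM in SNpc and 7.02, 11.6, 7.21, 9.59 and 10.4 CPM in VTA, so that the ranges overlapped, with SNpc library 1 the lowest. The difference of -0.06 ± 0.26 on the log2 scale (SE, edgeR adjusted p = 0.876) changed sign under 5 of 18 alternative settings, where it ran from -0.18 to 0.11.

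Further adrenergic receptor genes of the table are not members. Adra2b, the remaining alpha-2 receptor, was higher in VTA by a log2 difference of -3.17 ± 0.83 (SE), with edgeR adjusted p = 0.0100. Its VTA libraries held 0.739, 13.7, 9.72, 7.03 and 12.5 CPM and its SNpc libraries 0.223, 0.635, 0.407, 3.04 and 0.534 CPM. VTA library 1 lay within the SNpc range, and SNpc library 4 was the highest of its region. Adra1d (log2 fold change -0.74) and Adrb3 (0.27) had edgeR adjusted p = 0.565 and 0.574. Adra1d and Adrb3 share exonic sequence with opposite-strand transcripts, Gm14285 and Gm45470, so their counts are uncertain.

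**Figure D2:**
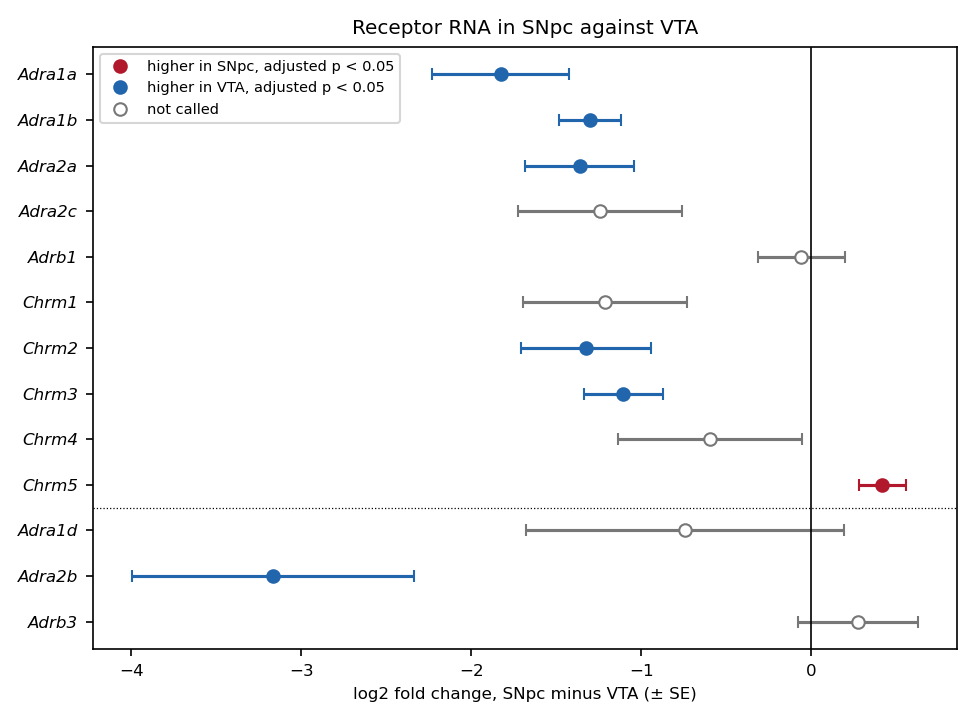
Log2 fold change of each receptor gene, SNpc minus VTA, with its standard error (horizontal bars); filled points passed the edgeR test at an adjusted p under 0.05 and open points did not, and further adrenergic receptors outside the examined 10 stand below the dotted line. Of the 10 genes, 9 lie left of 0, with Adra1a farthest at -1.83, and Chrm5 lies right of it at 0.42.

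In the muscarinic group Chrm5 was the most abundant. Chrm5 (Entrez 213788, chromosome 2, 112479171 to 112480769, minus strand) encodes the Gq-coupled M5 receptor. Its level was 32.6, 32.6, 36.3, 25.0 and 34.7 CPM in SNpc libraries 1, 2, 3, 4 and 6 and 27.6, 20.7, 23.6, 22.1 and 26.6 CPM in VTA libraries 1, 2, 4, 5 and 6. All SNpc libraries but one lay above all VTA libraries, and the exception, SNpc library 4, lay among them. The log2 fold change was 0.42 ± 0.14 (SE, edgeR adjusted p = 0.0250). It was 0.56 without SNpc library 4 (edgeR adjusted p = 0.00374). The call ended without SNpc library 3 or 6 or VTA library 2 or 5, with edgeR adjusted p = 0.0663, 0.0511, 0.0636 and 0.0595. It was lost as well under a covariate of glial markers (log2 fold change 0.23, edgeR adjusted p = 0.373) and after removal of a transcript length and GC trend (0.14, edgeR adjusted p = 0.485). The gene model used for that trend holds the coding part of Chrm5 only, so the length entered for it is a lower limit. Beside it, the 10 dopaminergic markers had a median log2 fold change of 0.78 in the same direction, and Slc6a3 one of 1.07.

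Chrm3 (Entrez 12671, chromosome 13, 9875486 to 10360847, minus strand), the Gq-coupled M3 receptor, went the other way. It was at 3.99, 3.60, 4.66, 5.17 and 3.51 CPM in SNpc and at 11.7, 8.75, 7.73, 8.07 and 8.83 CPM in VTA. The regions were separate, with VTA library 1 the highest. Its log2 fold change was -1.11 ± 0.23 (SE, edgeR adjusted p = 0.00129).

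Chrm2 (Entrez 243764, chromosome 6, 36388084 to 36528414, plus strand) encodes the Gi-coupled M2 receptor, which on cholinergic terminals acts as an autoreceptor. It was at 1.78, 3.89, 2.38, 4.64 and 2.39 CPM in SNpc and at 11.2, 12.3, 6.44, 3.71 and 4.13 CPM in VTA. VTA libraries 1 and 2 were high, while VTA libraries 5 and 6 lay within the SNpc range. The log2 fold change was -1.32 ± 0.38 (SE, edgeR adjusted p = 0.0115). The call ended without VTA library 2 (-1.08, edgeR adjusted p = 0.0505) and with glial markers as a covariate (-0.81, edgeR adjusted p = 0.283). An opposite-strand transcript, 9330158H04Rik, overlaps 142 bases of its exons.

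Chrm1 (Entrez 12669, chromosome 19, 8663789 to 8683587, plus strand), the Gq-coupled M1 receptor, held 1.22, 6.30, 1.85, 2.998 and 0.663 CPM in SNpc and 5.48, 5.48, 3.85, 8.86 and 6.55 CPM in VTA. Without SNpc library 2, the one SNpc library among the VTA values, the log2 fold change moved from -1.21 ± 0.48 (SE, edgeR adjusted p = 0.0562) to -1.84 (edgeR adjusted p = 0.00482). Gm22820, a short RNA gene on the opposite strand, overlaps 329 bases of Chrm1. Chrm4 (Entrez 12672, chromosome 2, 91927249 to 91928688, plus strand), the Gi-coupled M4 receptor, had the fewest reads of the 10 members before scaling by length, at 0.538 to 2.60 CPM in SNpc and 1.15 to 3.07 CPM in VTA. Its log2 fold change was -0.60 ± 0.54 (SE, edgeR adjusted p = 0.415).

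Levels of different receptors were compared per kilobase of transcript (CPM per kb). Chrm5 came first in both regions, at 20.2 ± 2.70 in the SNpc libraries and 15.1 ± 1.83 in those of the VTA (SD over 5 libraries). Chrm4 and Chrm5 were scaled by coding length (1440 and 1599 bases), which overstates them against members whose models include more of the transcript. In SNpc, Adra1b (3.39 ± 0.833) and Adrb1 (2.98 ± 0.925) followed, with overlapping SDs. Adra1a (1.41 ± 1.10), Chrm3 (0.966 ± 0.165), Chrm4 (0.940 ± 0.560), Adra2a (0.900 ± 0.358), Adra2c (0.686 ± 0.600), Chrm2 (0.532 ± 0.211) and Chrm1 (0.416 ± 0.357) formed a tail in which the SDs of neighbours overlapped. The order in VTA was Adra1b (8.36 ± 1.38), Adra1a (5.01 ± 1.61), Adrb1 (3.11 ± 0.682), Adra2a (2.31 ± 0.967), Chrm3 (2.08 ± 0.363), Adra2c (1.62 ± 0.403), Chrm4 (1.42 ± 0.509), Chrm2 (1.33 ± 0.702) and Chrm1 (0.964 ± 0.295). There Adra1b stood above Adra1a by more than their SDs, and from Adra1a downward the SDs of neighbours overlapped. Adra1a and Adrb1 thus changed places between the regions, although their SDs over libraries overlapped in each. Compared within each library, Adra1a lay above Adrb1 in every VTA library, most narrowly in VTA library 5 (3.53 and 3.25). In SNpc it lay below Adrb1 in every library except SNpc library 4 (3.36 and 2.68). No test was made of this order. Among all genes tested, the members were of middle to low abundance. Chrm5 had a higher mean CPM than 59.2% of them, Adra1b than 51.3% and Chrm4 than 16.2%.

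Shares within a library do not depend on how libraries were scaled. Chrm5 made up 87.4% ± 2.25 of muscarinic CPM per kb in SNpc libraries and 72.1% ± 4.90 in those of the VTA (SD, n = 5 each). It ranged from 83.8% to 89.7% and from 64.3% to 77.2%, without overlap. On raw counts the shares were lower, 74.1% ± 6.65 and 49.6% ± 5.73, and still did not overlap (64.8% to 79.7% and 41.1% to 55.8%). The Gq-coupled receptors Chrm1, Chrm3 and Chrm5 together held 93.6% ± 1.74 and 86.7% ± 4.83 of muscarinic CPM per kb, with overlapping ranges. Adrenergic members held 29.1% ± 5.90 of the CPM per kb of all 10 in SNpc and 49.4% ± 2.48 in VTA, from 25.2% to 39.3% and from 46.5% to 52.1%. The highest SNpc value was that of library 4, and without it the SNpc mean was 26.5%. The alpha-2 receptors Adra2a and Adra2c made up 17.7% ± 8.41 and 19.4% ± 5.48 of the CPM per kb of the adrenergic members. Within these members, their part did not differ beyond the spread between libraries. The share leaves out Adra2b, an alpha-2 receptor that is not a member, which averaged 0.241 CPM per kb in SNpc and 2.18 in VTA. No test was made of these shares.

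**Figure D3:**
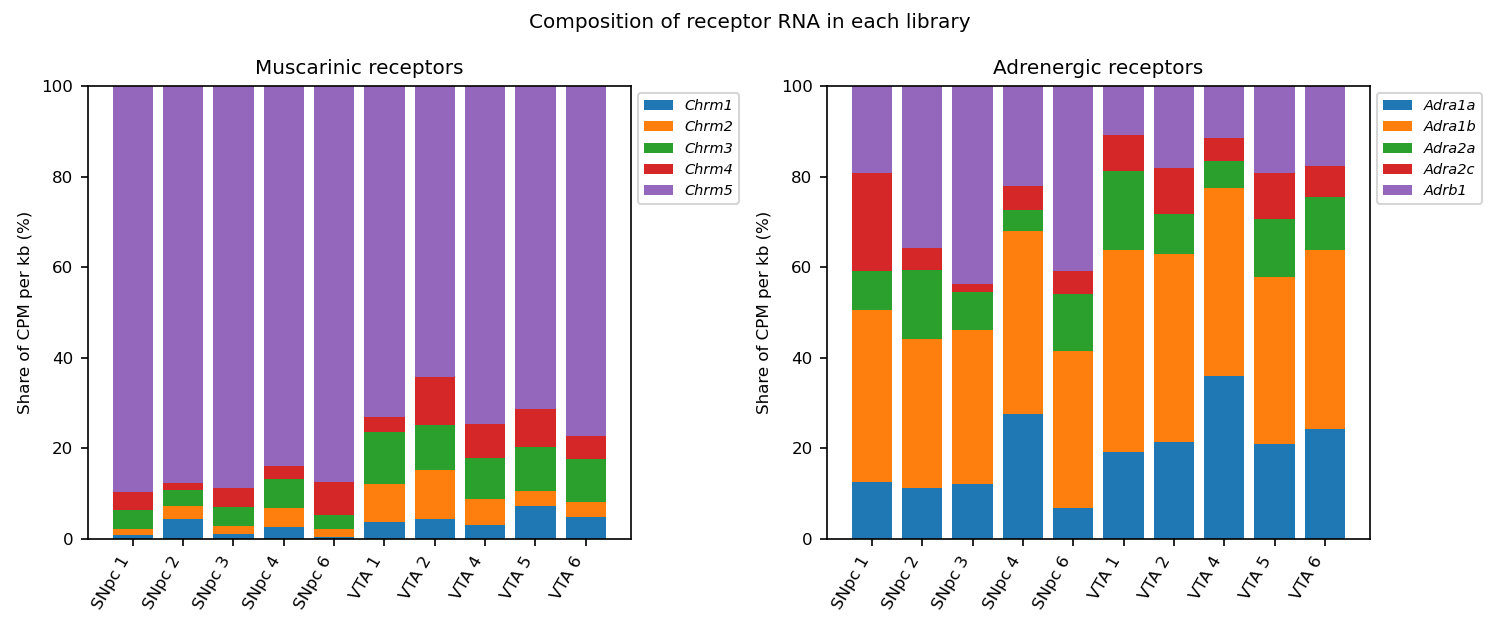
Stacked bars of the share (%, y axis) of each receptor gene in the summed CPM per kb of the 5 muscarinic (left) and 5 adrenergic genes examined (right), one bar per library. Chrm5 fills 83.8% to 89.7% of the muscarinic bar in SNpc libraries and 64.3% to 77.2% in VTA libraries, and Adra1a takes a larger part of the adrenergic bar in SNpc library 4 than in the other SNpc libraries.

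Genes that act downstream of these receptors were taken from 8 lists with 63 genes, all of them tested, the 4 remaining adrenergic receptors included. The test called 10 toward SNpc and 17 toward VTA, and their median log2 fold change was -0.12. Over all genes tested, 17.8% and 20.4% were called in these directions with a median of -0.04, and the counts for each route below stand beside the same shares. Correcting for transcript length and GC content with the scale kept gave 18 toward SNpc and 11 toward VTA, beside 15.4% and 15.8% of all genes, so the balance of directions turned. A glial covariate gave 5 and 14, beside 9.05% and 13.2%.

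On the Gq route, 2 of 16 genes were called toward SNpc and 3 toward VTA. The G protein subunit Gnaq averaged 547 ± 55.8 CPM in the SNpc libraries and 455 ± 16.3 CPM in those of the VTA (SD, n = 5 each), a log2 fold change of 0.27 (edgeR adjusted p = 0.0204), and its call was lost under the glial covariate (0.17, edgeR adjusted p = 0.269) and without SNpc library 1 or 6. The kinase Prkca was higher in SNpc by 0.71 on the log2 scale. The calcium release channels Itpr1 and Itpr2, which inositol trisphosphate opens, were higher in VTA (log2 fold changes -1.10 and -2.44, edgeR adjusted p = 4.92e-07 and 1.42e-04). So was Gna14, a Gq-class subunit, at -2.05 (edgeR adjusted p = 0.0260). The level of Gna14 was low, with means of 0.797 CPM in SNpc and 3.30 in VTA. None of the phospholipase C beta genes Plcb1 to Plcb4 passed.

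On the Gi and Go route, 2 of 5 genes were called toward SNpc and 0 toward VTA. Gnai1 rose by 0.40 and Gnao1, the most abundant, by 0.31 on the log2 scale in SNpc, and the call of Gnao1 was lost under the glial covariate at a log2 fold change of 0.24 (edgeR adjusted p = 0.0718). Gnaz and Gnai3 had log2 fold changes of 0.23 and -0.23 (edgeR adjusted p = 0.130 and 0.210). Gnaz was called toward SNpc when length and GC were corrected for (0.35, edgeR adjusted p = 0.0232 with the scale kept) and without SNpc library 4 (0.37, edgeR adjusted p = 0.00754). Among 7 potassium channel subunits that these receptors can act on, 1 was called toward SNpc and 3 toward VTA. Kcnj6, a subunit of the inward rectifier opened by Gi-coupled receptors, averaged 406 ± 86.8 CPM in the SNpc libraries and 231 ± 21.5 CPM in those of the VTA (SD; log2 fold change 0.81, edgeR adjusted p = 1.00e-04). Of its partners, Kcnj3 (9.17 CPM in SNpc and 22.35 in VTA) and Kcnj5 (0.974 and 8.865 CPM) were higher in VTA (-1.28 and -3.18). Kcnj9, at 13.9 and 15.5 CPM, did not differ (-0.16, edgeR adjusted p = 0.617). Higher in VTA too was Kcnq5 (-1.05), a subunit of the M-current that muscarinic receptors close. Kcnj3 and Kcnq5 lost the call under the glial covariate (-0.91 and -0.78, edgeR adjusted p = 0.0747 and 0.166), and Kcnq5 also when length and GC were corrected for.

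Of 10 genes of the Gs route, 1 was called toward SNpc and 5 toward VTA. The abundant subunit Gnas was higher in SNpc (log2 fold change 0.38), a call lost under the glial covariate (0.27, edgeR adjusted p = 0.0594). Adenylyl cyclases Adcy6 (-1.20), Adcy1 (-1.26), Adcy8 (-1.35), Adcy7 (-1.27) and Adcy9 (-0.56) were higher in VTA, and the call of Adcy1 was lost when length and GC were corrected for. Of 7 receptor kinases and arrestins, Grk6 was higher in SNpc (0.43) and Grk5 (-1.12) and Grk4 (-1.10) in VTA. The glial covariate ended the calls of Grk6 and Grk4, whose log2 fold changes were then 0.37 and -0.79 (edgeR adjusted p = 0.204 and 0.295). So did leaving out SNpc library 1 or VTA library 1. Grk6 also lost its call without SNpc library 2 or 3 or VTA library 2 and with library totals as the scale (0.39, edgeR adjusted p = 0.0546), and Grk4 without VTA library 5. Adrbk2 (0.24, edgeR adjusted p = 0.0991) and Arrb1 (0.01, edgeR adjusted p = 0.947) did not pass. With length and GC corrected for and the scale kept, both were called toward SNpc, at 0.59 and 0.50 (edgeR adjusted p = 5.10e-04 and 1.17e-04). Adrbk2 was also called by DESeq2 (adjusted p = 0.0478), with all 12 columns (edgeR adjusted p = 0.0341) and without SNpc library 4 or VTA library 6 (edgeR adjusted p = 0.0467 and 0.0367). RGS proteins, which speed up the switching off of G proteins, gave 3 of 12 higher in SNpc (Rgs6 0.72, Rgs7 0.37, Rgs2 0.37) and 2 in VTA (Rgs17 -0.48, Rgs12 -1.13). Both versions of the length and GC correction ended the calls of Rgs2 and Rgs17. Rgs7 lost its call with the scale kept (0.22, edgeR adjusted p = 0.0705) and held it with the scale refitted (0.24, edgeR adjusted p = 0.0462). The call of Rgs2 was also lost under the glial covariate and without SNpc library 1 or 2 or VTA library 1, 2 or 6. The esterase Bche was higher in VTA (-2.21), and Ache, the main enzyme of acetylcholine breakdown, had a log2 fold change of 0.32 (edgeR adjusted p = 0.0914) and was called toward SNpc without SNpc library 4 or VTA library 4 (edgeR adjusted p = 0.0257 and 0.0398).

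Genes whose levels followed a member most closely over the 10 libraries, after each region's mean was removed, were named for the 4 more abundant members (averages of 3 or more on the log2 CPM scale). They were Zcchc7 and Olfm1 for Adra1a (Pearson r 0.97 and 0.96), Park2 and Gtf2f2 for Adra1b (0.95 and 0.95), Zfp384 and 9830001H06Rik for Adrb1 (0.99 and 0.97) and Erc2 and Lpcat4 for Chrm5 (0.92 and 0.92). Each was picked from 10162 genes that share the same libraries, of which 100 reached an r of at least 0.75 to 0.88, so these are descriptions.

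The calls differed in how far they depended on single libraries and on processing. Adra1a, Adra1b, Adra2a and Chrm3 were called higher in VTA under all 18 alternative settings, with log2 fold changes from -2.37 to -1.18 for Adra1a, -1.41 to -0.96 for Adra1b and -1.19 to -0.89 for Chrm3. Chrm2 was called in 16 of 18 and Chrm5 in 10 of 18. Adra2c and Chrm1, which missed the threshold, were called in 4 and 3 of 18. DESeq2 called 7 members toward VTA and 1 toward SNpc, where 20.7% and 19.2% of all genes were called. Library totals as the scale gave 6 and 1 (21.7% and 15.3% of genes), no filter 5 and 1 (16.5% and 13.7%), and all 12 columns 7 and 1 (24.1% and 21.9%). With length and GC corrected for, 5 and 0 members were called (15.8% and 15.4% of genes with the scale kept, 15.5% and 16.5% with it refitted), and under the glial covariate 4 and 0 (13.2% and 9.05%). With 1 library left out, 4 to 6 members were called toward VTA and 0 or 1 toward SNpc, beside 17.7% to 20.1% and 14.5% to 20.9% of genes.

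**Figure D4:**
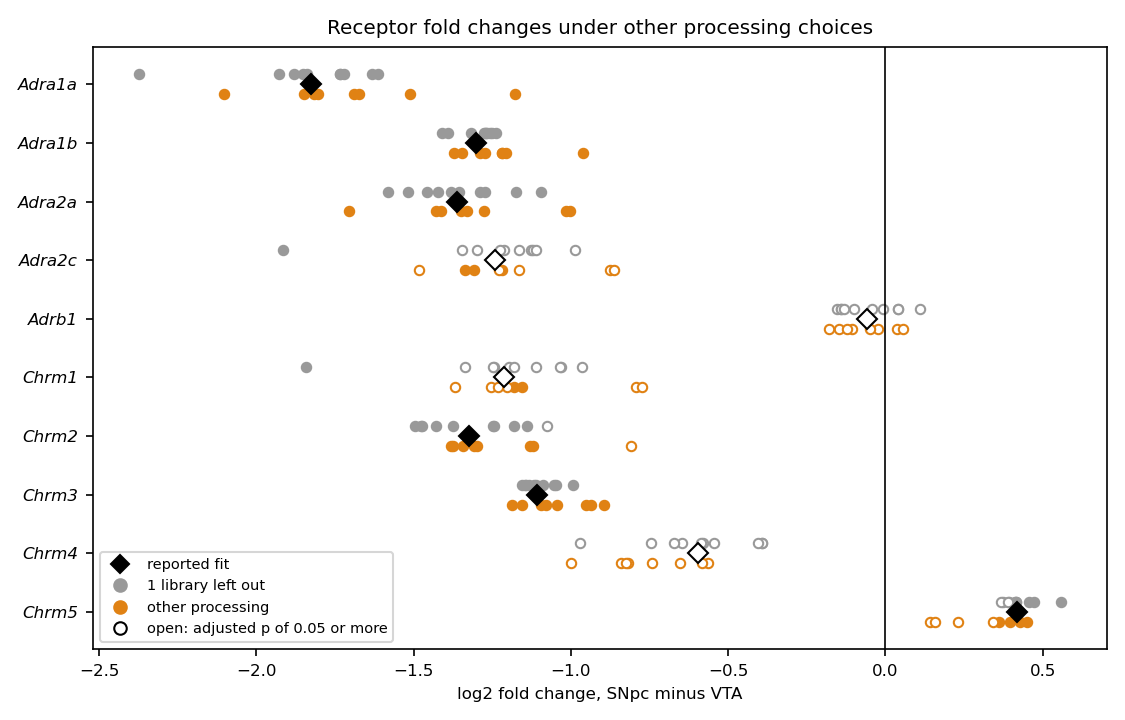
Log2 fold change (x axis, SNpc minus VTA) of each receptor gene in the reported fit (black diamonds), with 1 library left out (grey points) and under other processing choices (orange points); open symbols have an adjusted p of 0.05 or more. Adra1a, Adra1b, Adra2a and Chrm3 keep filled symbols left of 0 throughout, Chrm5 mixes filled and open symbols between 0.14 and 0.56, and Adrb1 lies on either side of 0.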

How the data were processed

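RNA of dopaminergic neurons from 2 mouse midbrain regions was sequenced, and the authors deposited whole-number counts of reads per gene with no normalization, 12 columns in 1 table. The submitters' processing notes name TopHat2 2.0.8 and mm10. How reads were assigned to genes, with which annotation and strand setting, is not given in the sources used here. Per the labels' protocols, cDNA was amplified from 1 ng RNA with NuGEN Ovation V2, a kit that does not mark strand. Columns 4 and 5 of SNpc, and 2 and 3 of VTA, differed in 0 genes (less than the sampling noise) and were counted as 1 sample each, leaving 5 libraries per region. No label ties a library to its own animal. The p-values therefore reflect only how far these libraries vary, and that variation may be technical.

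edgeR 4.0.16 (R 4.3.3) was run on the deposited counts: filterByExpr (15685 of 23079 genes kept), TMM scaling, robust quasi-likelihood F test, no covariate, Benjamini-Hochberg adjustment. CPM values are TMM-scaled, and log2 CPM used a prior count of 2. Coordinates, transcript lengths and GC content are from GENCODE M21 on mm10 (94.3% of tested genes), with the longest basic transcript per gene. The code was tested on simulated data. Alternatives were DESeq2 1.42.0, library totals, no filter, all 12 columns, removal of a loess length and GC trend, the mean log2 CPM of astrocyte, oligodendrocyte and precursor markers as a covariate, a replicate block, and leaving out each library. Named genes are all members, the other adrenergic receptors, the 4 smallest p-values and the most abundant gene of each pathway list, the 2 most abundant genes of each of 11 cell lists, and the 2 genes most correlated with each abundant member. Adcy7, Adcy9, Gna14, Kcnj9, Rgs12, the Plcb genes and Slc6a3's fold change were added after their values were seen. For these added genes no alternative settings are given, so how far their calls hold is not shown. A few genes that the rule names are not reported here. The members and lists were chosen with earlier results of these data known.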

Additional observations from a re-analysis of the deposited data

Results flagged for a closer look

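In 5 of 36 groups of 5 libraries examined (each receptor gene and each share in each region), 1 library lay farther from the rest than Dixon's 95% limit for 5 values (a gap of 0.71 of the range), which chance exceeds in about 1 group in 20. The 36 groups are not independent, since they share libraries and the adrenergic share includes the Adra1a and Adra1b values. SNpc library 4 was the one in 4 of the 5 flagged groups. It held Adra1a at 14.4 CPM against 2.60 to 4.48 in the other SNpc libraries, Adra1b at 16.2 against 9.75 to 10.3, and Adra2b at 3.04 against 0.223 to 0.635, and its adrenergic share of receptor CPM per kb was 39.3% against 25.2% to 28.6%. The same library held the highest oligodendrocyte and GABAergic marker sums of its region, 1431 and 371 CPM. The fifth was Chrm3 in VTA library 1, at 11.7 CPM against 7.73 to 8.83 in the others. That library also had the highest vascular marker sum, 106 CPM against 7.69 to 17.0 in the other VTA libraries. The part of these cells in the values was not tested.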

How the results depend on the processing

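The 5 members higher in VTA ran from 4 to 7 over the 18 alternatives (4 to 6 with 1 library left out). The 1 higher in SNpc, Chrm5, became 0 with the length and GC trend removed (scale kept or refitted), with glial markers as a covariate and with the replicate block, and ran from 0 to 1 with 1 library left out. The log2 fold change of Adrb1 changed sign to 0.0382 and 0.0562 with the trend removed (scale kept, refitted), and to 0.11, 0.04 and 0.04 without SNpc library 1, SNpc library 4 or VTA library 2, within a range of -0.1532 to 0.1108 with 1 library left out. With glial markers as a covariate Adra1d turned to 0.74 and Adrb3 to -0.62. Among all genes, the calls fell from 2793 to 1420 (higher in SNpc) and from 3203 to 2073 (higher in VTA) with that covariate. Pathway genes higher in SNpc numbered 10, and 18 and 20 with the trend removed (scale kept, refitted) and 5 with glial markers, while those higher in VTA fell from 17 to 11 in both trend versions. With 1 library left out they ran from 7 to 15 and from 15 to 17. On raw counts in place of reads per kb, mean shares in SNpc and VTA were 89.8% and 80.6% (Gq-coupled), 74.1% and 49.6% (Chrm5) and 42.9% and 60.6% (adrenergic). The replicate block, over the 4 numbers present in both regions, gave 1789 genes (11.4%) and 5 pathway genes higher in SNpc, and 5 members higher in VTA beside 16.2% of genes. Same-numbered libraries had correlated deviations of only -0.07 to 0.04, and 1 of the 4 SNpc libraries correlated best with its own number. These values showed no pairing by number, but noise between libraries can hide one, so they cannot exclude it. The numbers SNpc 4 and VTA 2 are also partly arbitrary, since each stands for identical columns with different numbers. Chrm4 held 33 to 161 counts and Adra1d 1 to 162 among SNpc libraries with totals of 62951005 to 65959443, so these low counts varied between libraries of similar depth.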
